A study of Mus musculus with 8 samples.

Results

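Casein kinase 1 and 2, glycogen synthase kinase 3, the beta-TrCP ubiquitin ligase adaptors and the deubiquitinase USP2 act on clock proteins after translation, and the RNAs that encode them are described here. The 9 genes Csnk1d, Csnk1e, Csnk2a1, Csnk2b, Btrc, Fbxw11, Gsk3a, Gsk3b and Usp2 were taken by symbol from 20741 genes counted on the sense strand. The same symbols gave 126 of 176269 introns, 189 of 292239 exons and 172 of 229190 splice junctions. The RNA came from the suprachiasmatic nucleus (SCN), the hypothalamic pacemaker, of C57/BL6 mice held in a 12 h light and 12 h dark cycle for 3 weeks and then placed in darkness. Polyadenylated RNA was sequenced in 8 libraries, 1 every 6 h over 2 days, each a pool of equal RNA amounts from 3 mice. Circadian times CT4 and CT10 (subjective day) and CT16 and CT22 (subjective night) thus had 2 libraries each, 1 from the first cycle (22 to 40 h) and 1 from the second (46 to 64 h). The labels give no replicates, sex or age, so each p-value rests on differences between pools, among them pools collected 24 h apart. In the fit of a 24-h rhythm, the spread also holds any 12-h pattern and is estimated partly over all genes.

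In the mammalian clock, CLOCK and BMAL1 drive transcription of the Per and Cry genes, whose proteins later repress them. How fast PER protein is phosphorylated and destroyed helps set the period. Casein kinase 1 delta and epsilon bind PER proteins, and phosphorylation of a PER2 site creates a docking motif for beta-TrCP, which brings in an SCF ubiquitin ligase and sends PER2 to the proteasome. Casein kinase 2 and glycogen synthase kinase 3 phosphorylate several clock proteins, and USP2 removes ubiquitin from clock proteins. The kinases are usually viewed as steadily expressed, with rhythms in what they act on.

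None of the 9 genes passed the test for a 24-h rhythm in RNA level. By edgeR's quasi-likelihood test with Benjamini-Hochberg adjustment, 0 of 9 were called at an adjusted p of 0.05, where 0.112% of the 15217 genes tested were called. Of the 9, 1 (Usp2) had an unadjusted p under 0.05, as did 8.6% of all genes, and DESeq2 also called 0 of the 9, where it called 0.644% of all genes. The 9 genes had a median log2 peak-to-trough ratio of 0.20, beside 0.29 over all tested genes. This fitted log2 ratio is never negative and grows with noise, and the tested genes were not matched to the 9 by level. The smallest log2 peak-to-trough ratio of a gene called by edgeR was 0.87. This is no limit of detection, since a call also depends on spread and read number. In the authors' deposited table, the rhythm test JTK gave a q-value of 1 for each of the 9 and an adjusted p between 0.125 and 1.

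The deposited totals were nearly equal between libraries: 11123610 to 11131890 reads on genes, 4196931 to 4199146 on introns and 3196136 to 3437120 on junctions. These totals had been equalised, so they do not give the depth of sequencing. SCN neuron markers were present, with 18 of 19 passing the count filter, none at 0 reads. Their summed level was 1136 to 1312 CPM (reads per 1000000 reads of a library) at CT10 and CT16 and 1417 to 1899.7 CPM at CT22 and CT4, so dusk lay below dawn with no overlap. The SCN neuron list includes Avp, Vip, Prok2 and Rgs16, and a rhythm of such genes within cells would move the sum as well. Whether the sum follows RNA per cell or the share of cells was not tested. The 6 pan-neuron markers overlapped. They summed to 2707 to 3559 CPM at CT10 and CT16 and 3156 to 3609 CPM at CT22 and CT4. Markers of oligodendrocytes varied more. The 12 oligodendrocyte markers summed to between 8211 and 15983 CPM at CT10 and CT16, and to between 5112 and 10548 CPM at CT22 and CT4. The first-cycle CT22 library had more reads near transcript starts than the other 7. Over 8397 genes, a median of 16.1% of its exon reads lay in the 5′-most exons of a gene (1 in 3 of them), beside 12.8% to 13.4% elsewhere.

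**Figure D1:**
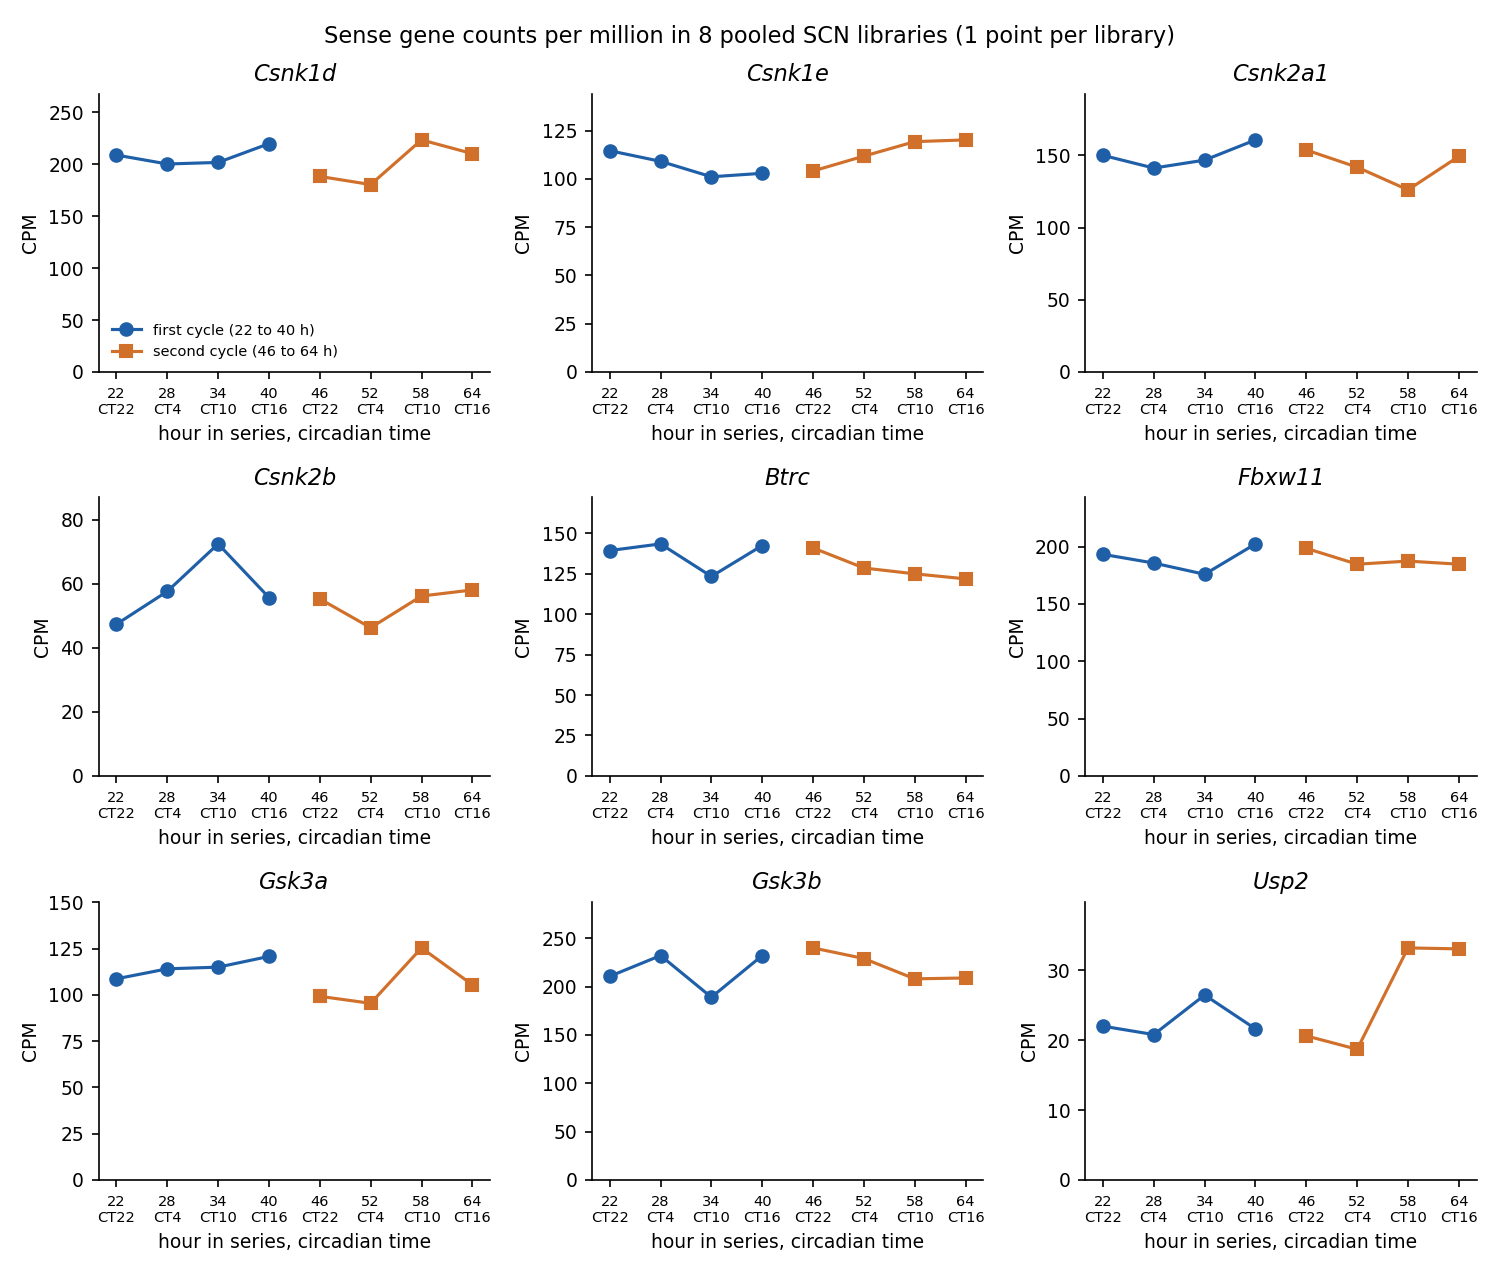
CPM (vertical axes from 0) of the 9 genes against hour in the series and circadian time, 1 point per pooled library, first cycle as circles and second as squares. Usp2 spans 18.7 to 33.2 CPM, and the other genes stay closer to their own mean.

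Per length of exon, the casein kinase 2 subunit Csnk2b had the highest level and Usp2 the lowest. Dividing CPM by the summed length of all annotated exons of a gene, the levels over 8 libraries were 47.5 ± 6.77 CPM per kb (SD, n = 8) for Csnk2b and 5.13 ± 1.198 for Usp2. Between them, in falling order, lay Csnk1d (33.5 ± 2.42), Gsk3a (30.9 ± 2.88), Fbxw11 (24.4 ± 1.10), Gsk3b (20.6 ± 1.62), Csnk2a1 (18.9 ± 1.33), Btrc (13.6 ± 0.945) and Csnk1e (11.5 ± 0.767). The ranges of neighbours in this order overlapped for Csnk1d and Gsk3a, for Gsk3b and Csnk2a1, and for Btrc and Csnk1e, while the other 5 neighbouring pairs did not overlap in any library. Long annotated exons with few reads lower these values, so the order describes annotated length as well as RNA.

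**Figure D2:**
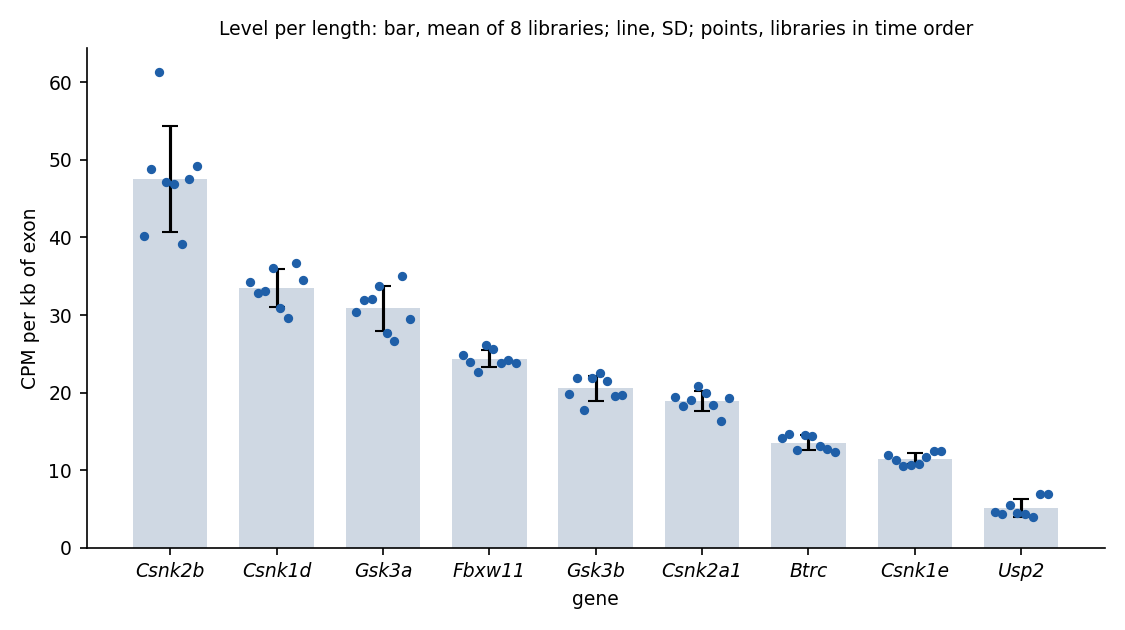
Level per length in CPM per kb of annotated exon (vertical axis from 0) for each gene, as the mean of 8 libraries (bar), its SD (line) and the libraries in time order (points). Csnk2b stands highest at 47.5 and Usp2 lowest at 5.13 CPM per kb.

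Most of the 9 RNAs varied little between pools. The coefficient of variation over 8 libraries ran from 4.51% for Fbxw11 to 23.3% for Usp2, with a median of 7.21%. Among the 6919 genes whose mean CPM lay in the same range, the median was 10.3% and the quartiles were 8.02% and 13.3%. Of the 9 genes, 7 lay under that median. The others, Csnk2b (14.2%) and Usp2, had the lowest mean levels of the 9, at 56.1 and 24.6 CPM. The comparison genes span the whole range and were not matched to each member by level. The part of read number in these values was not tested.

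Csnk1d encodes casein kinase 1 delta, the main PER kinase together with its close relative epsilon. The gene lies at chr11:120819696-120852683 (mm9). Its level was 200.3 and 180.5 CPM at CT4, 202 and 223.5 at CT10, 219.9 and 210.3 at CT16, and 209 and 188 at CT22, giving the first cycle before the second. The CT4 values were the lowest of each cycle, but CT22 of the first cycle lay above CT10 of the same cycle. Dusk (CT10 and CT16) against dawn (CT22 and CT4) gave a ratio of 1.10 (95% interval 0.977 to 1.24), with an edgeR adjusted p of 0.709. Day (CT4 and CT10) against night (CT16 and CT22) gave 0.973 (0.864 to 1.10).

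Csnk1e, at chr15:79248149-79274386, encodes casein kinase 1 epsilon and was the flattest of the 9 between circadian times. Its means were 110.5 ± 1.93 CPM at CT4, 110.2 ± 12.85 at CT10, 111.5 ± 12.3 at CT16 and 109 ± 7.37 at CT22 (SD, n = 2 each). The 4 means lie closer together than the libraries of CT10 do, which were 18.2 CPM apart. The dusk to dawn ratio was 1.01 (0.886 to 1.15) and the day to night ratio 0.999 (0.878 to 1.14). Its fitted log2 range from trough to peak was 0.02 ± 0.12 (SE), smaller than that of 99.7% of tested genes. A fitted peak time has no meaning at that size.

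Paralogs among the 9 genes share only short identical stretches. The longest identical run between any Csnk1d and any Csnk1e transcript in GENCODE M21 was 23 bases, between Btrc and Fbxw11 22 bases, and between Gsk3a and Gsk3b 17 bases. The read length is not given in the sources used here.

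The mouse Csnk1d RNA has alternative ends of its coding sequence, and these can be told apart in the junction counts. Skipping or including a 63-base exon before the last exon changes the end of the coding sequence and so the tail of the kinase, the part that regulates its activity. The coding ends of both forms are shown because the splice counts that follow separate them. They are read from GENCODE M21 transcripts on GRCm38, minus strand, with the last 24 shared coding bases in lower case and the form-specific coding bases with the stop codon in capitals. The capitals lie at chr11:120963856-120963906 for Csnk1d-201 and at chr11:120964978-120965010 for Csnk1d-202.
Csnk1d-201: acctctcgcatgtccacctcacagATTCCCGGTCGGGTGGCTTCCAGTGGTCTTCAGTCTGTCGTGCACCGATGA
Csnk1d-202: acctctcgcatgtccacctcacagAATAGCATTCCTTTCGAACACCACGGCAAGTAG
The specific parts are 51 and 33 bases long. Csnk1d-202 carries the 63-base exon, of which the rest is untranslated. The match of this exon to the mm9 table was made by its length alone.

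Both splice forms had junction reads in every library. At the start of the last exon (mm9 chr11:120825220), 403 of 602 junction reads skipped the 63-base exon and 199 came from it. The exon was thus included in 33.1% of these reads (95% Wilson interval 29.4% to 36.9%, which covers counting error only). By library the included share was 20.55% and 37.8% at CT4, 32.1% and 36.5% at CT10, 18.6% and 31.25% at CT16, and 39.3% and 39.6% at CT22. The CT22 libraries were the highest of their cycles, but CT4 and CT16 each differed widely between cycles. Over the 105 ways to form 4 pairs from 8 libraries, the exact permutation p was 0.248 (adjusted 0.476 over 5 shares tested, smallest possible p 0.00952). Measured at the other side of the choice, at the donor it shares, inclusion was 27.65% (24.1% to 31.5%), with an exact permutation p of 0.971. The read count at the last exon was 122 in the first-cycle CT22 library and 56 to 91 in the others.

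Casein kinase 2 is a tetramer of catalytic alpha and regulatory beta subunits. Csnk2a1, the alpha subunit at chr2:152052560-152107876, had 141 and 142 CPM at CT4, 147 and 126 at CT10, 161 and 149 at CT16, and 150 and 154 at CT22. All 4 day libraries lay below all 4 night libraries, as in 1 of the 9 genes and 2.75% of all tested genes. None of the 9 separated with day above night (1.91% of all), dusk above dawn (1.66%) or dusk below dawn (1.95%). The day to night ratio was 0.906 (0.804 to 1.02), with an edgeR adjusted p of 0.724.

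Csnk2b, the beta subunit at chr17:35253118-35259024, had 57.6 and 46.25 CPM at CT4, 72.4 and 56.1 at CT10, 55.7 and 58.04 at CT16, and 47.3 and 55.25 at CT22. The first-cycle CT10 library stood above the other 7, and dusk and dawn libraries overlapped. The dusk to dawn ratio was 1.17 (0.995 to 1.38), with an edgeR adjusted p of 0.652. Without the first-cycle CT10 library the log2 peak-to-trough ratio was 0.18, beside 0.35 ± 0.16 (SE) with it. Over the 8 libraries, log2 CPM of Csnk2a1 and Csnk2b had a Pearson r of 0.0067.

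Glycogen synthase kinase 3 alpha and beta phosphorylate several clock proteins and many metabolic ones. Gsk3a, at chr7:26013210-26022917, had 114 and 95.5 CPM at CT4, 115 and 125 at CT10, 121 and 105.5 at CT16, and 109 and 99.2 at CT22. Its dusk to dawn ratio was 1.12 (0.98 to 1.27), with an edgeR adjusted p of 0.687. Gsk3b, at chr16:38088926-38246728, had 232 and 229 CPM at CT4, 189 and 208 at CT10, 232 and 209 at CT16, and 211 and 240 at CT22. CT10 was the lowest time of both cycles for Gsk3b, and its ratio of dusk to dawn was 0.918 (0.811 to 1.04), with an edgeR adjusted p of 0.747. The fitted dusk to dawn estimates of the paralogs thus had opposite signs, each with an interval that includes no difference, and the difference between them was not tested.

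**Figure D3:**
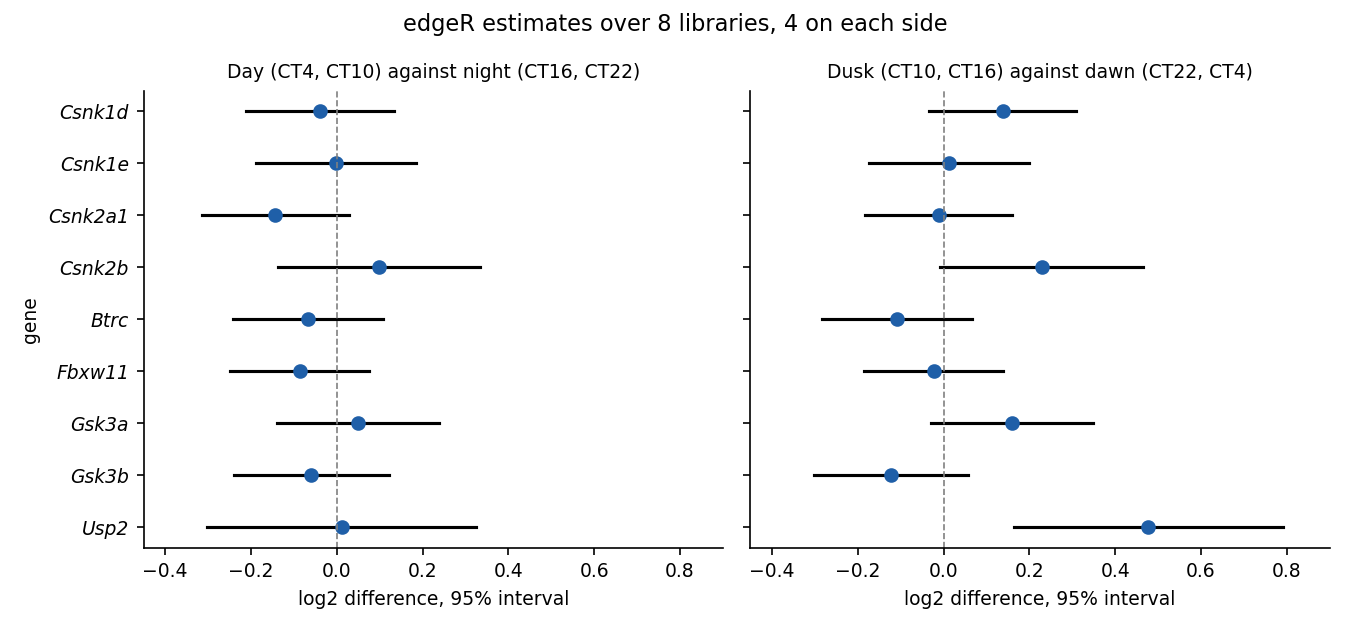
Fitted log2 difference with its 95% interval for day against night (left) and dusk against dawn (right), 4 libraries on each side, dashed line at 0. The interval of Usp2 for dusk against dawn, 0.16 to 0.79, is the only one drawn that leaves out 0.

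Btrc and Fbxw11 encode beta-TrCP1 and beta-TrCP2, the F-box proteins that recognise phosphorylated PER2. Btrc, at chr19:45438209-45608267, had 143 and 128.5 CPM at CT4, 123 and 125 at CT10, 142 and 122 at CT16, and 139 and 141 at CT22. Its dusk to dawn ratio was 0.928 (0.822 to 1.05), with an edgeR adjusted p of 0.771. Fbxw11, at chr11:32542703-32647044, had 186 and 185 CPM at CT4, 176 and 187 at CT10, 202 and 185 at CT16, and 193 and 198.5 at CT22. Its dusk to dawn ratio was 0.984 (0.880 to 1.10) and its day to night ratio 0.942 (0.842 to 1.05). For both genes the first-cycle CT16 library was high and the second-cycle one low, so the groups overlapped. The lowest and the highest library of Fbxw11 differed 1.15-fold, the smallest range of the 9 genes.

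Both F-box genes have an optional coding exon near the start of the RNA. These exons are shown because their use is counted next. They come from GENCODE M21 on GRCm38, plus strand, and were matched to the mm9 table by length, with no part in capitals. The Btrc exon lies at chr19:45456533-45456610 and the Fbxw11 exon at chr11:32708188-32708250.
Btrc exon of 78 bases: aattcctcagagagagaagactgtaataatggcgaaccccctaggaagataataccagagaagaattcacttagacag
Fbxw11 exon of 63 bases: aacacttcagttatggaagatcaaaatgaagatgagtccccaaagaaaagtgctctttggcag

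The Btrc exon was included in most junction reads. At its shared donor 168 of 220 reads, 76.4% (70.3% to 81.5%, Wilson), went into the exon. By library the share was 76.2% and 100% at CT4, 84.2% and 79.2% at CT10, 56% and 73.1% at CT16, and 68.75% and 81.25% at CT22, from 19 to 48 reads each. CT16 was the lowest time of each cycle at this donor. The exact permutation p was 0.381 (adjusted 0.476). At the shared acceptor the share was 75.2%, with an exact permutation p of 0.238 (adjusted 0.476). There the lowest time was CT22 in the first cycle (58.3%, beside 62.1% at CT16) and CT10 in the second (76.2%, beside 80% at CT16).

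In Fbxw11 the junction out of the 63-base exon and a junction that passes over it end at the same exon. No junction into the 63-base exon passed the count filter, so skipping cannot be told apart from a choice between upstream exons. Of 184 reads at the start of the following exon (mm9 chr11:32611772), 103 came from the 63-base exon, 56.0% (48.8% to 62.96%, Wilson), and 81 from a 102-base exon upstream. The share from the 63-base exon was 55.6% and 95.7% at CT4, 54.5% and 30% at CT10, 26.1% and 45.5% at CT16, and 52.8% and 70% at CT22. Both CT16 libraries lay below all CT22 and CT4 libraries. The exact permutation p was 0.305 (adjusted 0.476), and 10 to 36 reads stood behind each share.

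**Figure D4:**
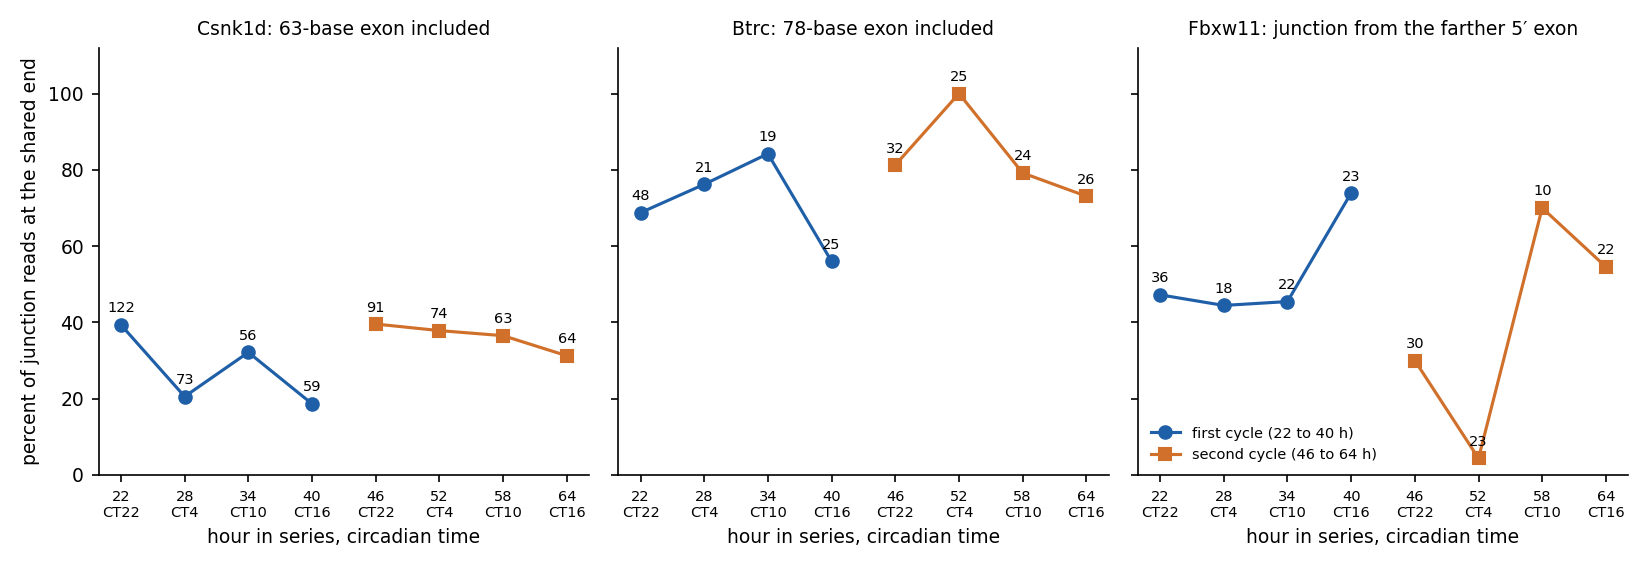
Percent of junction reads at a shared exon end (vertical axes from 0) by hour in the series and circadian time, with the number of reads printed at each point. Csnk1d and Btrc show inclusion of the optional exon. Fbxw11 shows the junction from its 102-base exon, with a share of 4.35% to 73.9% on 10 to 36 reads.

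Usp2 encodes a deubiquitinase that is rhythmic in many tissues and acts on PER1, BMAL1 and CRY proteins. It was the member with the lowest 24-h p and the only one with an interval that left out no difference. Its gene lies at chr9:43875084-43903893, and its level was 20.8 and 18.7 CPM at CT4, 26.5 and 33.2 at CT10, 21.6 and 33.1 at CT16, and 22.02 and 20.6 at CT22. CT10 was the highest and CT4 the lowest time of both cycles. All dusk libraries but the first-cycle CT16 one, which stood just under the first-cycle CT22 library, lay above all dawn libraries. Dusk averaged 28.6 ± 5.62 CPM and dawn 20.5 ± 1.37 (SD, n = 4 each). The ratio was 1.39 (1.12 to 1.73), with an edgeR p of 0.00531 and an adjusted p of 0.442, so the difference did not pass the threshold. Fitted together, the axes gave a log2 peak-to-trough ratio of 0.68 ± 0.21 (SE), an edgeR adjusted p of 0.493 and a fitted maximum at CT12.9 ± 1.18 h. A share of 16.6% of tested genes had a larger fitted ratio.

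Oligodendrocyte and microglial markers moved with the Usp2 level, and astrocyte markers followed it less closely. The 3 libraries with the most Usp2 RNA were also the 3 with the highest sums of oligodendrocyte markers (13132 to 15983 CPM, beside 5112 to 10548 in the other 5). They also had the highest sums of the 10 microglial markers (283 to 320.4 CPM, beside 228 to 259.5). The 10 astrocyte markers had their highest sum, 5484 CPM, in the first-cycle CT10 library, which is among these 3. They summed to 5350 CPM in the second-cycle CT22 library, which had the second lowest Usp2 level. In the second-cycle CT10 library, which had the highest Usp2 level, they summed to 4880 CPM. The 6 endothelial markers did not follow Usp2. They summed to 171.3 to 193.3 CPM in the 3 libraries with the most Usp2 RNA and to 161.7 to 198.1 CPM in the other 5. The summed SCN neuron markers separated dusk from dawn in the opposite direction to Usp2, while the summed pan-neuron markers overlapped. The part of either in the result was not tested. With the oligodendrocyte score as a term, the dusk to dawn ratio of Usp2 was 1.26, with an edgeR p of 0.0825 (adjusted 0.995). In pooled tissue a change in the share of a cell type and a change in RNA per cell cannot be told apart. Without the first-cycle CT16 library the ratio was 1.52 and the adjusted p 0.0657, and without the second-cycle CT10 library 1.295 and 0.961. Over these and the other alternatives the adjusted p of the 24-h test ran from 0.136 to 0.8815.

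The Usp2 exon of the long form held more reads than the first exon of the short form. The share of each form in Usp2 RNA was not measured. An exon further downstream (chr9:43899295-43899405) held 264 reads in 111 bases. The 857-base exon of the long form (mm9 chr9:43883449-43884305) held 298 reads over 8 libraries, or 348 reads per kb. The first exon of the short form (chr9:43892962-43893418, 457 bases) held 18 reads, or 39.4 per kb, and none in 4 of the libraries. The first-cycle CT22 library, with more reads near transcript starts, held 9 of them, and the other 7 libraries together held 9. The long-form exon had 45 and 25 reads at CT4, 23 and 52 at CT10, 28 and 40 at CT16, and 62 and 23 at CT22, with overlapping groups. The Usp2 gene lies inside the range of Rnf26 in the table (1345 reads there over 8 libraries). The kit keeps strand, but the strand setting of the count is not given in the sources used here.

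The RefSeq start window of Usp2 belongs to the short form. It is shown because it is the one of the members' windows with a cAMP-type motif. The stretch runs from 60 bases before the start to 10 after it, at chr9:44084860-44084929 on GRCm38.p6, plus strand, with the match in capitals.
Usp2: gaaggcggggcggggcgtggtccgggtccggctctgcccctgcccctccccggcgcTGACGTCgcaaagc
Each window covered 250 bases before to 50 after a RefSeq start, and 12 such windows of 7 members were found (Csnk1d and Btrc had none). Both strands were searched for the E-box CACGTG, the related CACGTT, the ROR element TAGGTCA, the first 7 bases of the D-box, TTATGTA, and of the cAMP element, TGACGTC. Among 32851 windows these were present in 7.15%, 4.68%, 2.61%, 2.63% and 3.21%. In the members' windows the cAMP sequence occurred in the Usp2 one, at base -4, and the D-box sequence in 1 of 3 Csnk2b windows. No member window held the other 3 sequences. A match describes letters in a window, and no match says nothing of the factors.

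Reads in introns gave another view of the same genes, and whether they came from unspliced RNA was not tested. Intron reads were summed per gene over introns that do not overlap, and 0 of the 9 members were called for a 24-h rhythm, where edgeR called 0.304% of 10858 genes. An unadjusted p under 0.05 was found for 1 of the 9 and for 9.43% of all genes. The median log2 peak-to-trough ratio of the 9 was 0.50 in introns, beside 0.51 over all genes. Read numbers were small for several members, from 1 read in a library of Gsk3b to 443 in a library of Gsk3a. For Csnk1d only 4 of 17 introns were kept, with 7 to 30 reads per library. For Csnk1e 7 of 15 were kept, with 38 to 107 reads per library. All their introns, in which overlapping ones may share reads, held 17434 and 9679 reads over 8 libraries. The results for these genes thus cover a part of their introns. The range of Gsk3a also holds another gene, 9130221H12Rik (659 reads over 8 libraries), whose part in the Gsk3a intron reads was not tested.

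Gsk3b introns were the exception in p. Its 8 introns held 27 and 22 reads at CT4, 11 and 7 at CT10, 11 and 1 at CT16, and 18 and 23 at CT22. All 4 dusk libraries were lower than all 4 dawn libraries, a separation found in that direction in 4.05% of genes with intron counts. The summed SCN neuron markers given above separated in the same direction, while the summed pan-neuron markers overlapped. The part of either in this result was not tested. None of the 9 separated with dusk above dawn in introns (1.06% of all). The dusk to dawn ratio was 0.334 (0.162 to 0.687), with an edgeR p of 0.00407 (adjusted 0.248). The 24-h test by edgeR gave an adjusted p of 0.354 (unadjusted 0.0128), and an adjusted p of 0.642 without the second-cycle CT16 library. The gene-level ratio given above, 0.918, had the same direction at a much smaller size, and the difference between intron and gene ratios was not tested. The intron table was brought to equal totals separately, so its ratios are relative to all intron reads of a library.

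**Figure D5:**
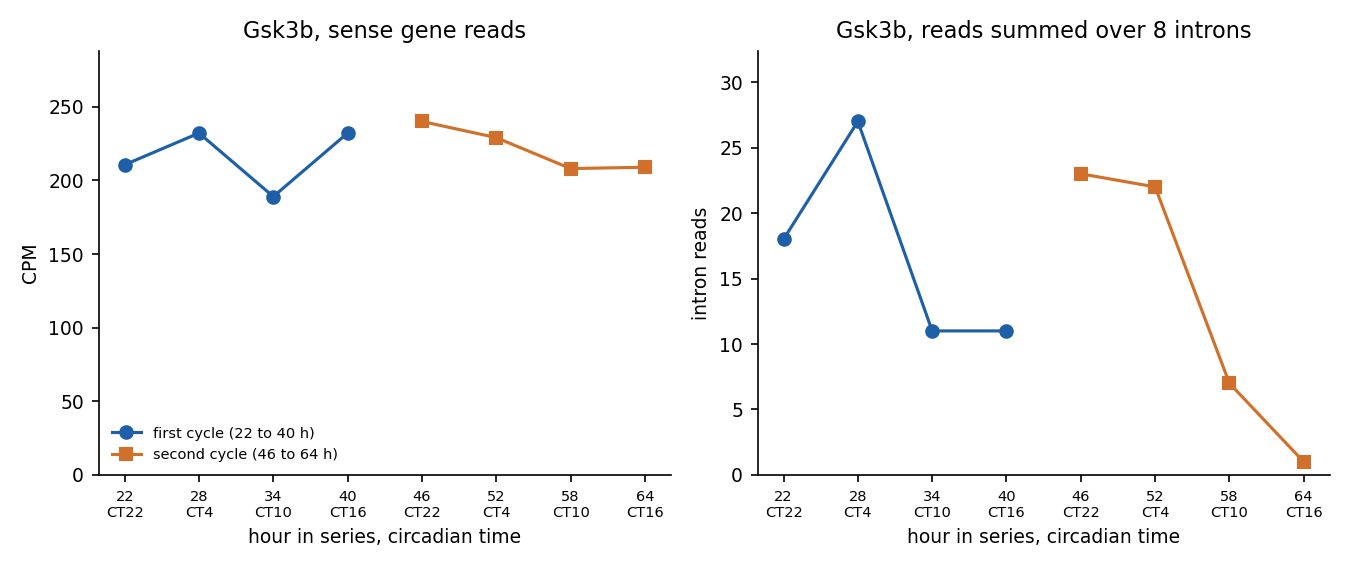
Gsk3b gene level in CPM (left) and Gsk3b reads summed over 8 introns (right), both from 0, by hour in the series and circadian time. Intron reads are 18 to 27 at CT22 and CT4 and 1 to 11 at CT10 and CT16, while the gene level stays between 189 and 240 CPM.

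Other intron sums had wider overlap. Btrc introns had 249 and 279 reads at CT4, 311 and 229 at CT10, 166 and 249 at CT16, and 217 and 218 at CT22. Their fitted peak was at CT6.74 ± 1.75 h, against CT22.9 ± 2.48 h for the gene, and neither rhythm passed the test (adjusted p of 0.631 and 0.786). Fbxw11 introns had 23 and 37 reads at CT4, the lowest time of both cycles, and 43 to 79 elsewhere (adjusted p = 0.581). Usp2 introns, at 12 to 36 reads, gave a dusk to dawn ratio of 0.96 (0.564 to 1.63), an interval that includes both no difference and the gene's 1.39.

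Where in the RNA the reads lay differed between members. The last exon with at least 40 reads held 95.4% of Gsk3b exon reads (94.1% to 97.2% by library), in an exon of 6141 bases. The same share was 61.0% for Csnk1d, 54.9% for Fbxw11, 54.2% for Csnk2a1, 51.9% for Btrc, 43.6% for Csnk1e, 36.6% for Usp2, 19.0% for Gsk3a and 10.3% for Csnk2b. The gene level of Gsk3b is thus mostly a count of its last exon.

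Relative exon use did not pass the test in any of the 9 genes. On the day-night axis 0 of 9 were called and 0 had an unadjusted p under 0.05, where edgeR called 0.0257% of 11657 genes and 3.22% had such a p. On the dusk-dawn axis 0 were called and 2 had such a p, where edgeR called 0.0172% and 1.95% had such a p. The first exon of Csnk1d (chr11:120852249-120852686) had 83 and 22 reads at CT22, 24 and 38 at CT4, 25 and 13 at CT10, and 16 and 18 at CT16, with a Simes p of 0.00593 (adjusted 1). The first exon of Gsk3a (chr7:26022397-26022917) had 88 and 13 reads at CT22, 5 and 12 at CT4, 1 and 13 at CT10, and 1 and 13 at CT16, with an edgeR adjusted p of 1 (unadjusted 0.0330). In both the first-cycle CT22 library, the one with more reads near transcript starts, was by far the highest. Without it the p-values were 0.830 and 0.939.

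Among junctions, 84 of the members' 172 passed the count filter, and 0 were called, where edgeR called 0.0179% of 78212. An unadjusted p under 0.05 was found for 4.76% of the members' junctions and for 5% of all. The lowest belonged to the Csnk2a1 junction at chr2:152080058-152083113, near the start of the RNA. It had 65 and 109 reads at CT4, 39 and 89 at CT10, 101 and 138 at CT16, and 173 and 148 at CT22, with an edgeR adjusted p of 0.485 (unadjusted 0.000936). CT22 was the highest and CT10 the lowest time of both cycles. The highest library was the first-cycle CT22 one, with more reads near transcript starts. The part of those reads in this result was not tested. The fitted log2 range of the Csnk2a1 junction from trough to peak was 1.41 ± 0.34 (SE), highest at CT20.7, beside 0.20 ± 0.11 and CT19.3 for the whole gene. It was called, at an adjusted p of 0.0473, only when no filter on low counts was used.

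The members did not move as 1 group. Of 36 pairs, 17 had a positive Pearson r of log2 CPM over the 8 libraries, and the median r was -0.011. The highest r was 0.87, between Csnk1d and Gsk3a. Btrc was most like Gsk3b (0.73) and Fbxw11 most like Btrc (0.73), while Btrc and Usp2 had r = -0.72. All values come from the same 8 libraries and share their scaling, so they describe these pools only. Of 11900 other genes with a mean of at least 5 CPM, those most like Usp2 were Itpk1 (r = 0.98), Brf2 (0.96), Tmem141 (0.96), Homer3 (0.95) and Gpd1 (0.95). Their 24-h tests had edgeR adjusted p-values of 0.357 to 0.851.

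The rest of the pathway likewise gave no call by edgeR. Lists of other casein kinases (5 genes), the core of the SCF and related ligases (12), other ubiquitin ligases and deubiquitinases of clock proteins (10), other kinases (15) and phosphatases (8) were measured in full. Of these 50 genes 0 were called for a 24-h rhythm by edgeR and 1 by DESeq2 (Fbxl21), beside 0.112% and 0.644% of all genes. By edgeR, 6 of the 50 had an unadjusted p under 0.05, beside 8.6% of all genes. Their median log2 peak-to-trough ratio was 0.20, equal at that precision to the 9 genes, beside 0.29 over all tested genes. Here too the genes were not matched by level. The lowest p belonged to Fbxl21, an F-box protein that binds CRY, with a log2 ratio of 1.12 ± 0.22 (SE), a peak at CT5.59 ± 0.746 h and an adjusted p of 0.138 by edgeR and 0.00694 by DESeq2. The ligases Ube3a (0.57 ± 0.16) and Huwe1 (0.37 ± 0.12) and the kinases Mapk3 (0.49 ± 0.15), Prkca (0.46 ± 0.14) and Mapk8 (0.33 ± 0.12) followed, with edgeR adjusted p-values of 0.442 to 0.571. Among phosphatases Ppp1cc was first (0.33 ± 0.13, adjusted p = 0.595), and among casein kinases Csnk1g3 (0.24 ± 0.13, adjusted p = 0.731).

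Other terms of the model gave no call among the 9 genes. A 12-h term, which sets CT4 with CT16 against the other times, called 0 genes in all by edgeR and 8 (0.0526%) by DESeq2, none of them among the 9. At an unadjusted p under 0.05 it gave 1137 genes (7.47%) and 0 of the 9. The second cycle against the first also called 0 genes by edgeR and 0 by DESeq2, with 543 genes (3.57%) and 0 of the 9 at such a p. The largest ratio between cycles was that of Usp2, 1.13 (0.911 to 1.40). The day-night and dusk-dawn terms called 0 of the 9, where edgeR called 0.105% and 0.0197% of all genes. At an unadjusted p under 0.05 they gave 0 and 1 of the 9, beside 7.72% and 7.84% of all genes.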

How the data were processed

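The authors deposited whole-number read counts per gene, intron, exon and junction. The submitters' processing notes name STAR 2.3.0e and mm9. How reads were counted and totals equalised is not given in these sources. From JTK, the authors' deposited tables give a p-value, a q-value and a peak time per row, per the file headers. Times come from the library titles, which begin at CT22, while the labels also state a start at CT18.

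Counts were tested with edgeR 4.0.16 in R 4.3.3 (TMM scaling, at least 10 reads in at least 2 libraries). A day-night and a dusk-dawn term were tested jointly (2 degrees of freedom) as a 24-h cosine. The peak and its ratio to the trough came from both coefficients, with delta-method errors. Introns, junctions and exons used the effective library sizes of the genes, and exon usage the diffSpliceDGE function. Junction shares were taken where 2 junctions of at least 40 reads shared an end. The model was tested on simulated data. Alternatives were DESeq2 1.42.0, other scalings, no filter, a replicate block, an oligodendrocyte term and leaving out each library.

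Named genes were the 9 members, with for each its intron sum, the exon with the lowest p and its alternative junctions, the 5 genes most like the member with the lowest p, and up to 3 per list with the lowest p. The Csnk2a1 junction, last-exon shares, Usp2 first exons and reads near transcript starts were chosen after values were seen. Members and lists were chosen with earlier results of these data known. The result for 1 listed gene is not reported here.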

Additional observations from a re-analysis of the deposited data

How the results depend on the processing

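No alternative called any of the 9 genes in a gene-level, intron or exon-usage test. Of 113 alternatives over all tests, 1 called a member: with no filter on low counts, 1 Csnk2a1 junction passed. The members' log2 peak-to-trough ratios moved most for Usp2, from 0.54 to 0.87 when 1 library was left out, and from 0.47 to 0.68 under the other alternatives. The pooled shares of optional exons were recomputed without each library, an alternative chosen after seeing the data. Csnk1d inclusion ran from 31.5% to 34.8% and Btrc inclusion from 73.3% to 79.0%. The share of the Fbxw11 junction from the 102-base exon ran from 39.75% without CT16 replicate 1 to 49.7% without CT4 replicate 2, around 44.0%.

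Counts over all genes and features moved much more. For the 24-h rhythm of genes 17 became 98 with DESeq2 and 362 with no filter. For day-night 16 became 56 with DESeq2, 137 with no filter and 34 with the oligodendrocyte term. For dusk-dawn 3 became 34 with DESeq2 and 239 with no filter. The 12-h count of 0 became 8 with DESeq2 and 169 with no filter. The cycle count of 0 became 2 with no filter and 1 with the oligodendrocyte term. For introns 33 became 16 with TMM on their own table and 115 with no filter, and for junctions 14 became 7 and 238. For exon usage, 3 day-night calls became 5 with exons of at least 30 reads, and 2 dusk-dawn calls became 24 with a gene-level F test. The cause was not tested.

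With a replicate block for the cycle, dusk-dawn calls were 6, junction calls 0, and exon-usage calls 1 on each axis. The numbers name cycles and pair no animals, and the block called none of the 9 genes (lowest adjusted p 0.343, for introns).

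When 1 library was left out, calls ran from 7 to 43 for the 24-h rhythm, 4 to 28 for day-night, 3 to 60 for dusk-dawn, 0 to 33 for the 12-h term and 0 to 2 for cycle. They ran from 5 to 33 for introns, 0 to 64 for junctions, 0 to 67 for day-night exon usage and 0 to 3 for dusk-dawn exon usage. The highest counts came without CT16 replicate 1 for the 24-h rhythm, dusk-dawn, junctions and day-night exon usage, without CT22 replicate 2 for day-night, and without CT4 replicate 2 for the 12-h term. The lowest for the 24-h rhythm, day-night and introns came without CT10 replicate 2. Each time with 1 library left was assumed to vary like the others. Depth limits the intron, junction and exon results, where some features had 0 to 10 reads in a library.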
